A study of Mus musculus with 6 samples.

Results

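The peaks described here are promoters that were open in both WT and Spen KO clone 3 cells but stood lower in the ranking of the clone 3 peaks. ATAC-seq finds open chromatin as DNA that the Tn5 transposase can reach and tag. A peak qualified if it was an autosomal peak of the clone 3 list, had its midpoint within 1 kb of the transcription start site (TSS) of a coding transcript, and overlapped a WT peak. Each list gives 2 replicate values per peak. Their mean, the score, was ranked among all peaks of the same list and turned into a percentile. The members were chosen by these measured values: their clone 3 percentile was at least 20 points below that of the WT partner, the WT peak with the longest overlap. There were 1037 such peaks among 7256 shared promoter peaks, or 14.3% (percent called, for a difference of -20 or less), and among 23722 peaks in the whole clone 3 list. They lay nearest to 1028 different coding genes.

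The lines are haploid mouse embryonic stem cells (mESCs) of a mixed genomic background, named HATX WT and SpenKO, which share an Xist gene that doxycycline switches on. Clone 3 is 1 knockout clone, so a property of the clone and an effect of losing Spen cannot be told apart. The 6 sample records give WT, clone 2 and clone 3 each without doxycycline and after 2 ug/ml for 48 hr, and the lists name a line but no doxycycline state. Clone 2 was not analysed here.

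A promoter is the stretch around a TSS on which the transcription machinery assembles, and most promoters of widely expressed mouse genes lie in CpG islands, GC-rich stretches that keep an open structure across cell types. Genes are unevenly spread along chromosomes, and gene-dense regions have a higher GC content over long stretches than gene-poor ones. Spen is a large RNA-binding protein that recruits the NCoR/SMRT co-repressors and histone deacetylase 3, and is best known as the partner of Xist in silencing the X chromosome.

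The stretches upstream of the TSS of 6 members with large differences are shown first, so that the results further on can be set against the promoters themselves. Of the 12 members with the most negative difference whose replicates were all far apart between the lines, these are the 6 whose 200 bases before the TSS overlap no annotated exon, read 5′ to 3′ on the gene's strand from the mm9 genome. They are chr15:102236986-102237185 for Sp1, chr19:37450693-37450892 for Kif11, chr17:31701518-31701717 for Pknox1, chr2:130275814-130276013 for Ptpra, chr11:98273584-98273783 for Erbb2 and chr15:98904806-98905005 for Troap, all on the plus strand. Capitals mark matches on either strand to the motifs listed further on, which here are the GC box GGGCGG and the CCAAT box.
Sp1: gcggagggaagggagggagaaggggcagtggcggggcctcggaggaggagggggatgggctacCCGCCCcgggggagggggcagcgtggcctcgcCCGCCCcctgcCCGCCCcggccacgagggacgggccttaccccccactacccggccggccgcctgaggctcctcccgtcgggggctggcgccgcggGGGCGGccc
Kif11: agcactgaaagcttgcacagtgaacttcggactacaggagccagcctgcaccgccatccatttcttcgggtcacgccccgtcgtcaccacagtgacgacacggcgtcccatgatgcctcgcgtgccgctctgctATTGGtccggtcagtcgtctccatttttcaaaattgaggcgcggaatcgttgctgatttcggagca
Pknox1: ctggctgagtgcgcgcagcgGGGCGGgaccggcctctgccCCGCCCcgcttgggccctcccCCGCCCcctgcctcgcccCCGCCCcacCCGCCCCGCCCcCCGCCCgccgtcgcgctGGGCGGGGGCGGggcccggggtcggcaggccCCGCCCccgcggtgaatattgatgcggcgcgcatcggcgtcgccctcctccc
Ptpra: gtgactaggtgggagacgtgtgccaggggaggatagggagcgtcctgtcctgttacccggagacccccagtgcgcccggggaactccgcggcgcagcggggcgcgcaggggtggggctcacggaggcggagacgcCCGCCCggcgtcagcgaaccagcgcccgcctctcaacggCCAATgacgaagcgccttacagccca
Erbb2: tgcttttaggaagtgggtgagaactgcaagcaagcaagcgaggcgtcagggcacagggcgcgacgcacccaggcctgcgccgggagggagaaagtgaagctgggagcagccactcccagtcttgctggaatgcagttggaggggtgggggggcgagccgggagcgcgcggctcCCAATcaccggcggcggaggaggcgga
Troap: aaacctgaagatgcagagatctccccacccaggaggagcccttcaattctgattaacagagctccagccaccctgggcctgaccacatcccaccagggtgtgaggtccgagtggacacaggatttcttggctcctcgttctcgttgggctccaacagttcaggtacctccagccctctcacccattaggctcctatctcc
The GC box occurred in the same 200-base window at 63.8% of all shared promoter peaks and the CCAAT box at 39.0%. That of Pknox1 is 84% GC with 30 CpG and many GC boxes, that of Kif11 is 57% GC with 18 CpG and 1 CCAAT box, and that of Troap has 3 CpG and no match. The Troap stretch lies outside both peaks, since the peaks sit 3′ of that TSS, and 13 bases of the Pknox1 stretch lie in its clone 3 peak.

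A percentile is a relative measure: a peak falls in rank when others pass it, so a lower rank does not by itself show that a promoter was less open. The difference also chose the peaks, and its values below are a description. The median difference among the 1037 peaks was -27.7 points, with quartiles of -35.1 and -23.5. Their median percentile was 64.4 in WT and 32.1 in clone 3. The rank was lower by 20 to 30 points for 607 of them, by 30 to 40 for 280, by 40 to 50 for 115 and by more for 35. Most members were therefore moderate shifts of mid-ranking promoters. Just inside the threshold were the peaks of Gle1 (-20.01), Ndufa4 (-20.003) and Nadsyn1 (-20.001), and just outside it those of Akap1 (-19.99), Rbak (-19.95) and Unkl (-19.94). The opposite set, peaks 20 or more points higher in clone 3, had 339 peaks, 4.67% of the shared promoter peaks, and 552 peaks without WT replicate 1.

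**Figure D1:**
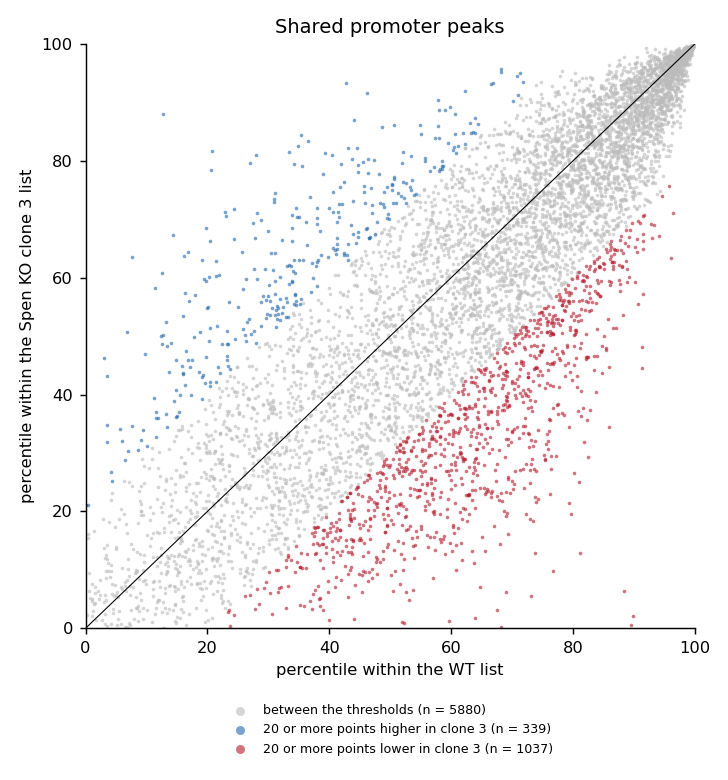
Each point is 1 of the 7256 shared promoter peaks, with its percentile in the WT list on the x axis and its percentile in the Spen KO clone 3 list on the y axis, and the line marks equal percentiles. The 1037 peaks at least 20 points lower in clone 3 (red) start at a WT percentile of 23.4, and the 339 peaks at least 20 points higher are blue.

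Promoters as a class stood lower in the clone 3 list. Over all 7256 shared promoter peaks the median difference was -2.87 points (95% interval -3.18 to -2.58), whereas over 8818 shared peaks more than 1 kb from a coding TSS, called distal, it was 3.00 (2.57 to 3.36). Of the distal peaks, 8.85% were 20 or more points lower. When each peak was ranked only against the other shared promoter peaks, 664 were 20 or more points lower and 656 were 20 or more points higher. Such a ranking sets the mean difference to 0, so the near balance of the 2 sides follows largely from it. Intervals are 95% Wilson intervals for shares and binomial order-statistic intervals for medians, and cover counting error only.

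The replicate values behind each list, which entered the score, ran the same way for most members. In 889 of the 1037 peaks (85.7%, 83.5 to 87.7) both clone 3 replicate percentiles were below both WT replicate percentiles, which was so in 29.4% of all shared promoter peaks. In 256 members every clone 3 replicate was 20 or more points below every WT replicate, and these 256 were all the shared promoter peaks of which that held (3.53%). The replicates of a list were themselves often apart. Among the members the WT replicates differed by 20 points or more in 309 peaks (29.8%) and the clone 3 replicates in 277 (26.7%), against 17.9% and 19.9% of the 5880 peaks between the thresholds. In the opposite set the shares were 30.7% and 32.2%, so such spread was not particular to the members. Both replicates of a line are technical, so their spread is not that between cultures. The number of reads behind the lists is unknown.

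The cell type was checked on 16 genes of embryonic stem cells and 12 of other cell types. A promoter peak was present for 8 of the 16 in WT and for 6 in clone 3. Sox2, Sall4 and Lin28a had one in WT only and Klf4 in clone 3 only. Pou5f1, Nanog and Esrrb had no promoter peak in either list. For the other cell types the number was 2 of 12 in each list, Gata4 and Pax6 in WT and Eomes and Neurod1 in clone 3. None of the 28 genes was the nearest gene of a member. Promoter peaks thus mark these cells only in part, and the part of cell identity in the differences was not tested.

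In 5 of the 12 largest differences 1 clone 3 peak faced 1 WT peak. Kif11 (ENSMUSG00000012443.3) encodes the kinesin that pushes spindle poles apart in mitosis. Its clone 3 peak lay at chr19:37450273-37451056, with a midpoint 229 bp upstream of the TSS in intergenic sequence. The WT replicate values were 41.3 and 30.3 and the clone 3 values 8.53 and 9.93, so the replicates of the lines did not overlap. In percentiles these were 91.7 and 81.8 against 4.79 and 9.61, a difference of -82.1 points by score.

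Ptpra (ENSMUSG00000027303.10), a receptor tyrosine phosphatase, had its clone 3 peak at chr2:130275673-130276487, centred in an exon 66 bp downstream of the TSS. Its values were 27.4 and 28.5 in WT and 10.7 and 9.75 in clone 3, a difference of -66.9 points. Erbb2 (ENSMUSG00000062312.5), a receptor tyrosine kinase of the EGF receptor family, had a short peak at chr11:98273593-98273984, centred 4 bp into the first exon. Its values were 24.7 and 23.7 in WT and 7.92 and 8.59 in clone 3, a difference of -64.4 points. In both genes the WT replicates were close to each other and far above both clone 3 replicates.

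AI597468 (ENSMUSG00000060935.5) had its peak at a divergent promoter, where a second coding gene starts on the opposite strand, at chr10:84565045-84565729. Its values were 28.5 and 24.6 in WT and 10.9 and 11.2 in clone 3, a difference of -60.8 points. Troap (ENSMUSG00000032783.7), which encodes a protein of the mitotic spindle, had its peak at chr15:98905077-98905503, centred in an exon 284 bp downstream of the TSS. Its values were 31.5 and 27.6 in WT and 13.2 and 12.03 in clone 3, a difference of -60.2 points. Again the groups did not overlap, which the rule for naming these peaks required.

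The other 7 of the 12 were fragments. At Sp1, Slc35a5, Luc7l2, Fam196a, Pknox1, Pafah1b1 and Wnt16 a single WT peak of 956 to 1442 bp overlapped 2 clone 3 peaks, and the member was 1 of them. The member at Sp1 (ENSMUSG00000001280.6), which encodes a factor that binds GC boxes, was a 307-bp peak at chr15:102236891-102237197 with values of 6.52 and 7.25, against 47.7 and 26.4 in WT. Its difference was -88.9 points, the most negative of all. The other clone 3 peak on the same WT peak, from 102235847 to 102236777, had values of 40.7 and 45.3 and a percentile of 95.9, which was 6.36 points above WT. The WT list holds the 1442 bp as a single peak, so no separate WT value exists for the stretch over the TSS.

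The second piece also stood close to or above WT at Luc7l2 (5.81 points, a gene for a splicing factor), Fam196a (4.89), Slc35a5 (-4.20, a gene of the nucleotide sugar transporter family) and Wnt16 (20.95, a Wnt ligand). At Pknox1 (-35.2, a homeodomain factor) and Pafah1b1 (-29.3, the dynein regulator Lis1) the second piece was a member too. These 7 values thus depend on how the peak caller divided a region. Fragments were rare among all members. The WT partner overlapped 2 or more clone 3 peaks for 30 of the 1037 (2.89%, 2.03 to 4.10), against 38 of the 5880 shared promoter peaks between the thresholds (0.646%, 0.471 to 0.886). In the opposite set it did so for 6 of 339 (1.77%, 0.814 to 3.81), an interval that overlaps that of the members. With only the highest-scoring clone 3 peak kept for each WT peak, 1011 members remained.

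**Figure D2:**
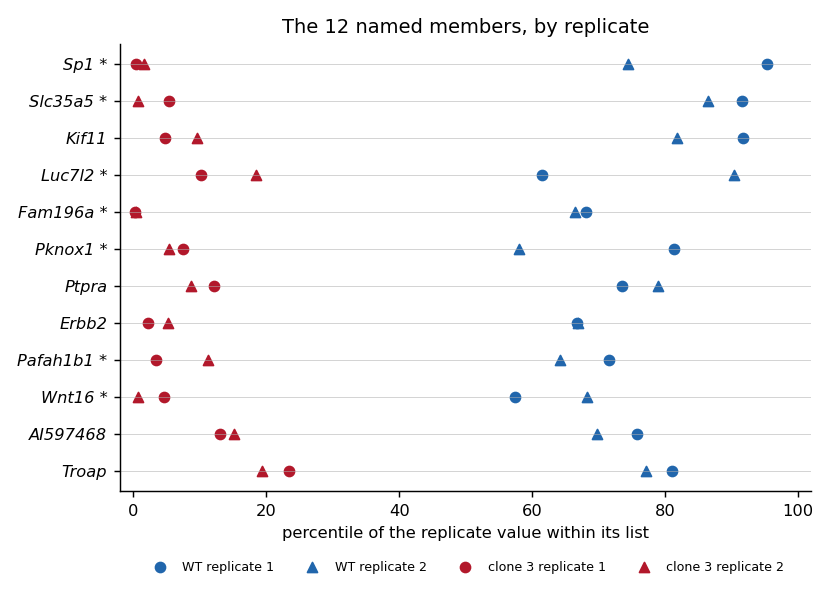
Percentile of each replicate value within its list (x axis) for the 12 named members (y axis), with WT in blue, clone 3 in red, circles for replicate 1 and triangles for replicate 2; an asterisk marks the 7 genes whose WT peak overlapped 2 clone 3 peaks. The lowest WT point lies at 57.4 and the highest clone 3 point at 23.4.

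The members' own promoter sequence differed little from that of other shared promoters. In the 300 bp around the midpoint the median GC content was 66.3% (65.7 to 67), against 65.7% (65.3 to 65.7) in the 6219 other shared promoter peaks, which was also 65.7% after weighting these to the members' WT percentiles. The median ratio of observed to expected CpG was 0.816 (0.807 to 0.830) against 0.799 (0.794 to 0.806), or 0.804 weighted. CpG-rich sequence, with a GC content of at least 50% and a ratio of at least 0.6, was found at 82.6% (80.2 to 84.8) of members and 79.7% (78.7 to 80.7) of the others. The opposite set was poorer in CpG, with a median ratio of 0.713 (0.669 to 0.752). Across the 7256 peaks, Spearman's rho between the difference and the GC content of the 300 bp was -0.05, a description only, since neighbouring peaks share their base composition.

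Position at the gene was also close to that of other promoters. The midpoint lay a median of 79 bp (72 to 87) from the TSS in members and 84 bp (81 to 87) in the others, and the TSS lay inside the peak in 90.7% (88.8 to 92.4) and 91.7% (91.0 to 92.4). Divergent coding promoters made up 105 of the 1037 members (10.1%, 8.43 to 12.1), against 9.57% (8.86 to 10.3) of the others and 9.19% weighted. The opposite set held fewer (3.83%, 2.25 to 6.45). The clone 3 peak was shorter than its WT partner in 64.4% of members and in 64.3% of the peaks between the thresholds.

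The 300 bp were searched for 16 short motifs, each on both strands. The GC box GGGCGG was present at 74.3% (71.5 to 76.8) of members and 72.7% (71.6 to 73.8) of the other shared promoters. The CCAAT box, bound by NF-Y, was present at 38.6% (35.7 to 41.6) against 42.6% (41.4 to 43.8), and at 37.1% of the others after weighting to the members' WT percentiles. The ETS site CCGGAAG was at 20.3% (18.01 to 22.9) against 18.1% (17.2 to 19.099), and the Rbpj site GTGGGAA of Notch target genes at 6.94% (5.55 to 8.65) against 5.40% (4.87 to 5.99). The octamer ATGCAAAT, bound by Oct4, was at 2.22% (1.48 to 3.31) against 1.29% (1.03 to 1.60). The intervals of members and others overlapped for all 16 motifs. The other 11 were CGCATGCG (Nrf1), AAGATGGCG (Yy1), TGACGTCA (CREB and ATF factors), CACGTG (the E-box), CTCGCGAG (Zbtb33), ACTACAAT (Zfp143), ACAAAG (Sox factors), TATAAA (the TATA box), TGANTCA (AP-1), GGGTGTGG (Klf4) and CAAGGTCA (Esrrb). The AP-1 site was at 4.05% of members and 3.54% of the others, and the TATA box at 2.41% and 2.85%. Over all 7256 peaks the GC box was at 72.9%, the CCAAT box at 42.0%, the ETS site at 18.4%, the Rbpj site at 5.62%, the octamer at 1.42%, the AP-1 site at 3.61% and the TATA box at 2.78%.

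The members differed more from the other promoters in the sequence far outside the peak. The median GC content of the 500 kb around members was 45.9% (45.7 to 46.2), against 44.2% (44.1 to 44.3) around the other shared promoters, 44.2% after weighting to the members' WT percentiles, 45.7% (45.6 to 45.9) around WT promoter peaks without a clone 3 peak, and 42.6% (42.2 to 43.3) around the opposite set. With the 7256 peaks divided into deciles by this regional GC content, 35 of 726 peaks in the lowest decile were members (4.82%, 3.49 to 6.63). In the highest decile 161 of 726 were (22.2%, 19.3 to 25.3), and in the one below it 162 of 726 (22.3%, 19.4 to 25.5). The opposite set went the other way, from 9.09% (7.21 to 11.4) in the lowest decile to 2.34% (1.47 to 3.72) in the highest. The median difference moved from 1.35 points (0.606 to 2.17) to -8.20 (-9.63 to -6.45). Regional GC content was chosen after the data had been seen.

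The relation was also present within bands of WT percentile, in the same direction in each band from 20 upwards. Among peaks of WT percentile 50 to 60, 38 of 254 in the lowest tertile of regional GC were members (14.96%, 11.1 to 19.9), against 101 of 269 in the highest tertile (37.5%, 32.0 to 43.5). Among those of WT percentile 70 to 80 the shares were 9.92% (7.22 to 13.5) and 31.4% (26.8 to 36.4). The GC content of the 300 bp, by contrast, gave 12.7% (10.5 to 15.4) in its lowest decile and 18.1% (15.5 to 21.1) in its highest. Spearman's rho with the difference was -0.24 for regional GC over the 7256 peaks.

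**Figure D3:**
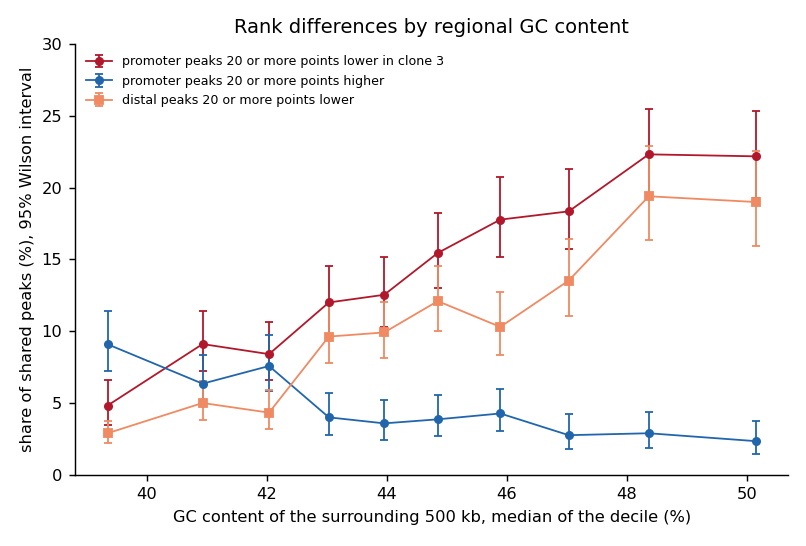
Share of shared peaks (y axis, with 95% Wilson intervals) against the median GC content of the surrounding 500 kb in each decile of the promoter peaks (x axis), for promoter peaks 20 or more points lower in clone 3 (red), promoter peaks 20 or more points higher (blue) and distal peaks 20 or more points lower (orange). The red share goes from 4.82% to 22.2%, the orange share from 2.89% to 18.99%, and the blue share from 9.09% to 2.34%.

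Peaks that the selection did not use followed regional GC in the same direction. Among shared distal peaks in the same GC bands, the share 20 or more points lower was 2.89% (2.24 to 3.72) in the lowest band and 18.99% (15.9 to 22.5) in the highest, and the median difference went from 10.5 points (9.71 to 11.5) to -5.60 (-7.08 to -3.58). Of the WT promoter peaks, 67 of 787 in the lowest band had no clone 3 peak at all (8.51%, 6.76 to 10.7), against 301 of 1024 in the highest (29.4%, 26.7 to 32.3). These shares were not banded by WT percentile. The WT values of promoter peaks themselves fell with regional GC (Spearman's rho -0.178 for replicate 1 and -0.111 for replicate 2). The share of clone 3 promoter peaks without a WT peak varied less, between 10.2% (8.26 to 12.4) in the second lowest band and 14.7% (12.5 to 17.2) in the highest. The distal peaks and the unmatched WT promoter peaks come from the same libraries as the members.

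The replicates of 1 line also differed along regional GC. In single replicates the share of shared promoter peaks 20 or more points lower in clone 3 lay between 8.95% and 10.95% in the lowest quintile of regional GC, over the 4 pairings of a clone 3 with a WT replicate. In the highest quintile it lay between 21.6% and 29.0%. WT replicate 1 was 20 or more points below WT replicate 2 in 5.44% (4.39 to 6.73) of the lowest quintile and 13.2% (11.6 to 15.1) of the highest. In the other direction the shares were 13.98% (12.3 to 15.9) and 9.30% (7.91 to 10.9). Between the clone 3 replicates both directions were more frequent at high GC: replicate 2 was that much below replicate 1 in 8.75% and 14.05%, and replicate 1 below replicate 2 in 8.20% and 9.78%. Spearman's rho of the difference with regional GC was -0.126 for WT replicate 1 minus WT replicate 2 and 0.0152 for the clone 3 replicates. For the 4 pairings between the lines it ran from -0.134, for replicate 1 of both lines, to -0.246. The gradient between the WT replicates was thus close to the weakest of those between the lines, and its part in the members was not tested.

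Members also lay among more genes. A median of 18 coding genes (17 to 19) started within 500 kb of a member, against 13 (12 to 13) for the other shared promoters and 10 (9 to 11) for the opposite set. The 1893 WT promoter peaks without a clone 3 peak were close to the members, with a median of 17 (17 to 18). With up to 5 such genes 76 of 1034 peaks were members (7.35%, 5.91 to 9.10), with 11 to 20 it was 348 of 2213 (15.7%, 14.3 to 17.3), and with 41 or more 115 of 551 (20.9%, 17.7 to 24.5). The nearest gene of a member had a median length of 24287 bp (22393 to 26323), that of the other shared promoters 29285 bp (28381 to 30534), and that of the unmatched WT promoter peaks 24670 bp (22805 to 26099). Gene number and regional GC go together. Within the lowest tertile of regional GC the member share was 6.35% (5.16 to 7.78), 9.15% (7.41 to 11.3) and 10.1% (6.79 to 14.9) in the tertiles with fewest, intermediate and most genes. Within the middle tertile of regional GC it was 12.8% (10.4 to 15.6), 13.998% (12.1 to 16.1) and 17.4% (14.7 to 20.5). Within the highest it was 8.51% (4.38 to 15.9, 8 of 94), 21.3% (18.3 to 24.7) and 20.98% (19.1078 to 22.99). The share was thus higher at high than at low regional GC among peaks with intermediate and most genes, while among those with fewest genes the intervals of the lowest and highest tertile overlapped.

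The autosomes differed in their share of members. Chromosomes 11 (103 of 518, 19.9%, 16.7 to 23.5), 9 (78 of 397, 19.6%, 16.0 to 23.8) and 19 (44 of 230, 19.13%, 14.6 to 24.7) had the most. Chromosomes 12 (21 of 306, 6.86%, 4.53 to 10.3), 18 (16 of 201, 7.96%, 4.96 to 12.5) and 1 (45 of 453, 9.93%, 7.51 to 13.0) had the fewest. If every peak had the member share of its decile of regional GC, chromosome 12 would have held 13.4%, chromosome 8 15.7% and chromosome 7 16.4%, each above the interval of the observed share (on 8 it was 12.1%, 9.18 to 15.7, and on 7 13.2%, 10.7 to 16.2). Chromosome 9 would have held 14.2%, below its interval. For the other 15 autosomes the value lay inside the interval. Base composition of the region thus left chromosomes 9 and 12 furthest from their observed shares.

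**Figure D4:**
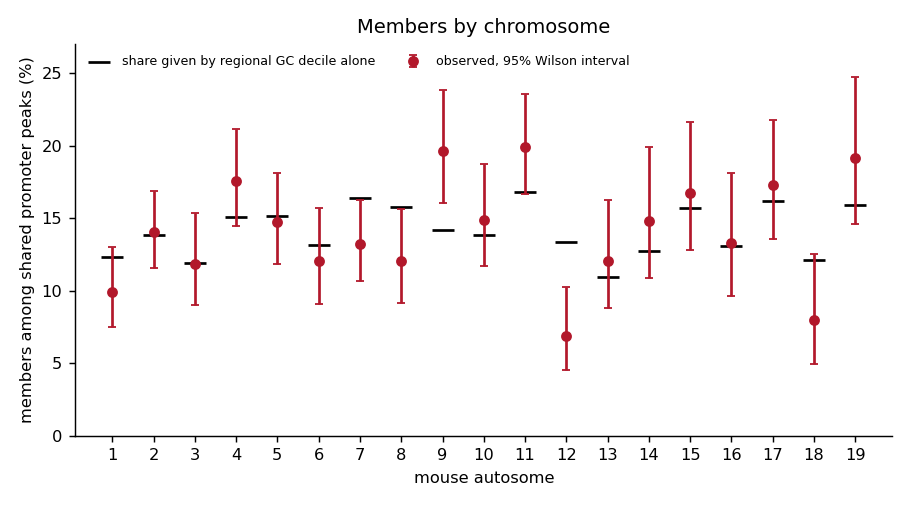
Members as a share of the shared promoter peaks on each mouse autosome (red, with 95% Wilson intervals), and the share each would have from its deciles of regional GC alone (black bars). The observed share is 6.86% on chromosome 12, where the bar is at 13.4%, and 19.6% on chromosome 9, where it is at 14.2%.

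Members were found beside each other as well as alone. Along the chromosomes the longest rows of consecutive shared promoter peaks that were all members had 5 peaks. One spanned 223 kb at chr7:150785859-151009077, with Cars, Tnfrsf22, Tnfrsf23, Osbpl5 and Nadsyn1, and differences from -26.8 to -20.001. The other spanned 1090 kb at chr9:69301209-70390805, with Anxa2, Gtf2a2, Myo1e, Ccnb2 and Sltm, and differences from -39.3 to -20.7. The first includes genes of an imprinted domain, where expression depends on the parent of origin. These rows were picked for holding members.

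In 5-Mb windows with at least 15 shared promoter peaks, of which there were 197, 21 had no member and 17 had 30% or more. The highest shares were 7 of 16 at 20 to 25 Mb of chromosome 14 (43.8%, 23.1 to 66.8), 8 of 19 at 40 to 45 Mb of chromosome 9 (42.1%, 23.1 to 63.7) and 13 of 33 at 80 to 85 Mb of chromosome 15 (39.4%, 24.7 to 56.3). The intervals were wide at these numbers. The nearest other shared peak within 50 kb, on another WT peak, was 20 or more points lower for 141 of the 739 members that had one (19.08%, 16.4 to 22.1), against 492 of 3770 peaks between the thresholds (13.1%, 12.01 to 14.2). When only distal neighbours were taken, the shares were 13.4% (10.5 to 17.0) and 11.1% (9.92 to 12.5), and the median difference of the neighbour was -2.18 (-3.88 to -0.535) against 0.618 (0.0707 to 1.11).

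The genes of the members were described by 25 lists, each to be read against 14.3% of all shared promoter peaks and a median difference of -2.87. For the factors that silence endogenous retroviruses, 6 of 20 shared promoter peaks were members, with a median difference of -5.69 over the list, and none was 20 or more points higher. Daxx (ENSMUSG00000002307.9), a chaperone that places histone H3.3 at retroviral repeats, had values of 27.8 and 32.6 in WT and 12.6 and 14.8 in clone 3, a difference of -55.8. Its peak at chr17:34045865-34046529 was centred 162 bp upstream of the nearest coding TSS, and no WT and clone 3 replicate values overlapped.

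Trim28 (ENSMUSG00000005566.7), the co-repressor that KRAB zinc finger proteins recruit, had 2 shared promoter peaks. The member, at chr7:13608433-13608861, lay 854 bp upstream of the TSS, with values of 31.5 and 17.0 in WT and 16.6 and 9.61 in clone 3 and a difference of -45.9. The peak over the TSS, at chr7:13609310-13609770, had values of 23.8 and 25.3 in WT and 24.2 and 24.0 in clone 3, a difference of 5.73. The member is thus not the peak at the start site, and by percentile its clone 3 replicate 1 (42.98) stood above its WT replicate 2 (40.4). Atf7ip (-33.5), a partner of the H3K9 methyltransferase Setdb1, Sumo2 (-31.2), a SUMO modifier, Cbx3 (-28.5), which encodes HP1 gamma, and Suv39h2 (-21.4), an H3K9 methyltransferase, were the other 4. With both lists limited to peaks of an IDR, the authors' irreproducibility rate, of at most 0.01, 2 members of this list were left. Under the same limit 1099 shared promoter peaks in all were members.

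For Nodal signalling and ERK feedback 7 of 19 shared promoter peaks were members and none was in the opposite set, with a median difference of -14.6. Smad2, the signal transducer of Nodal, had values of 31.5 and 35.0 in WT and 15.1 and 19.8 in clone 3, a difference of -37.9. Map2k1, the kinase that activates ERK, had 34.7 and 27.5 in WT and 18.8 and 15.7 in clone 3, a difference of -35.9. In both the WT values were above both clone 3 values. By rank against shared promoter peaks only, 2 of these 7 were left, and 664 of all 7256 shared promoter peaks were members. Besides Smad2 and Map2k1, the members of the list were the receptors Fgfr2 (-28.2) and Fgfr1 (-21.3) and the ERK phosphatase Dusp4 (-26.1). They also included the adaptor Grb2 (-22.8), which had a second peak at 1.51, and the ETS factor Etv4 (-20.5). In LIF and BMP signalling 2 of 9 were members, with a median of -15.3. They were Socs3, the feedback inhibitor of LIF signalling, at -46.5 (21.9 and 22.3 in WT, 9.63 and 13.3 in clone 3), and Smad1, the BMP effector, at -24.9.

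In the p53 pathway 5 of 17 were members, with a median of -8.19. These were Mdm4 (-46.4) and Mdm2 (-20.2), both inhibitors of p53, Ei24 (-36.1), Phlda3 (-33.0) and Trp53inp1 (-26.2), which are p53 target genes. Proteasome subunits had 5 of 19 and a median of -14.0, with Psmd14 (-30.9), Psmd5 (-30.6) and Psma1 (-27.5) lowest. Mitotic kinesins and centromere proteins had 4 of 16, among them Kif11, Cenpm (-53.3) and the centromeric histone Cenpa (-45.1), with a median of -4.45. Polycomb and trithorax genes had 4 of 19, with Cbx7 (-37.2), which reads H3K27me3, and the methyltransferase Ezh1 (-34.9), and a median of -4.10. The counts are small, and the intervals make no allowance for there being 25 lists. Of the 25 intervals, those of the retrovirus silencing list (14.5 to 51.9) and of Nodal signalling and ERK feedback (19.1495 to 58.96) lay above 14.3% and none lay below. From the regional GC deciles of their peaks alone the shares would have been 16.1% and 16.6%, and the first of these lies inside the interval of the retrovirus silencing list.

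The lists nearest to the study's questions were small, and the intervals of those that follow all held 14.3%. Spen partners and co-repressors had 3 members of 24 and a median of -0.995, with Hnrnpk (-43.3), which recruits Polycomb to Xist, Gatad2a (-25.7, with a second promoter peak at -0.883) and Ctbp1 (-25.2). The Notch pathway, in which Spen and Rbpj act together, also had 3 of 24, Neurl1a (-31.4), Nrarp (-27.6) and Hey1 (-25.4), and a median of -5.58. Core and naive pluripotency genes had 1 of 9, the upstream Trim28 peak, and a median of -0.567. Genes of DNA methylation, which include enzymes, methyl-CpG readers and cofactors, had 1 of 9, the demethylating enzyme Tet2 (-25.6), and a median of -5.23. The list of imprinted genes had 1 of 11 (Ndn, -24.9) and a median of -1.20. None of the genes in the chromosome 7 row of members, which includes genes of an imprinted domain, counted in this list. Germ layer genes had 1 of 3 (Foxa2, -24.9), formative genes 1 of 4 (Etv4) and germline genes 0 of 4.

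For the housekeeping groups every interval of the share held 14.3%, while several medians lay further below 0 than the -2.87 of all shared promoters. They were -8.43 for cytosolic ribosomal proteins (23 of 32 peaks below 0), -7.76 for the respiratory chain (31 of 43) and -6.75 for aminoacyl-tRNA synthetases (18 of 25). Of all shared promoter peaks, 4565 of 7256 (62.9%) were below 0. The medians were -3.20 for mitochondrial ribosomal proteins, -3.15 for histones, -2.83 for splicing factors and -1.83 for cell cycle genes. Cytosolic ribosomal proteins had 4 members of 32, with Rps10 (-42.3) and Rpl27a (-30.6), and 1 peak in the opposite set. Mitochondrial ribosomal proteins had 3 of 24 (Mrpl28, -34.3, Mrps30, -31.0, and Mrpl1, -22.2), the respiratory chain 3 of 43 (Cox6b2, -26.5, with a second clone 3 peak on its WT peak at 20.2, Ndufa13, -25.2, and Ndufa4, -20.003) with 3 in the opposite set, and splicing factors 3 of 29 (Srsf3, -52.6, Sf3a1, -46.6, and Sf3a3, -29.3). Aminoacyl-tRNA synthetases had 4 of 25, with Lars2 (-51.4), Dars (-28.8) and Iars2 (-26.8), and cell cycle genes 3 of 35, Ccnb2 (-39.3), Rb1 (-24.9) and Plk1 (-22.0). Replication-dependent histones had 4 of 32 with 2 in the opposite set, the largest difference being that of Hist2h2aa2 (-30.5), whose sequence has near-identical copies and whose WT peak overlapped a second clone 3 peak at 1.82.

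The 2 largest lists give the closest estimates. Zfp zinc finger genes, many of which bind retroviral repeats, had 31 members of 188 shared promoter peaks (16.5%, 11.9 to 22.5), led by Zfp771 (-52.3), Zfp688 (-45.2) and Zfp946 (-43.5), with 5 in the opposite set and a median of -2.50. Solute carriers had 19 of 112 (17.0%, 11.1 to 24.98), with Slc35a5, Slc36a1 (-41.0) and Slc25a25 (-40.1), with 10 in the opposite set and a median of -3.35. Homeobox genes had 2 of 20, among them Pou4f1 (-40.2). Neither of the large lists stood away from the 14.3% of all shared promoters.

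**Figure D5:**
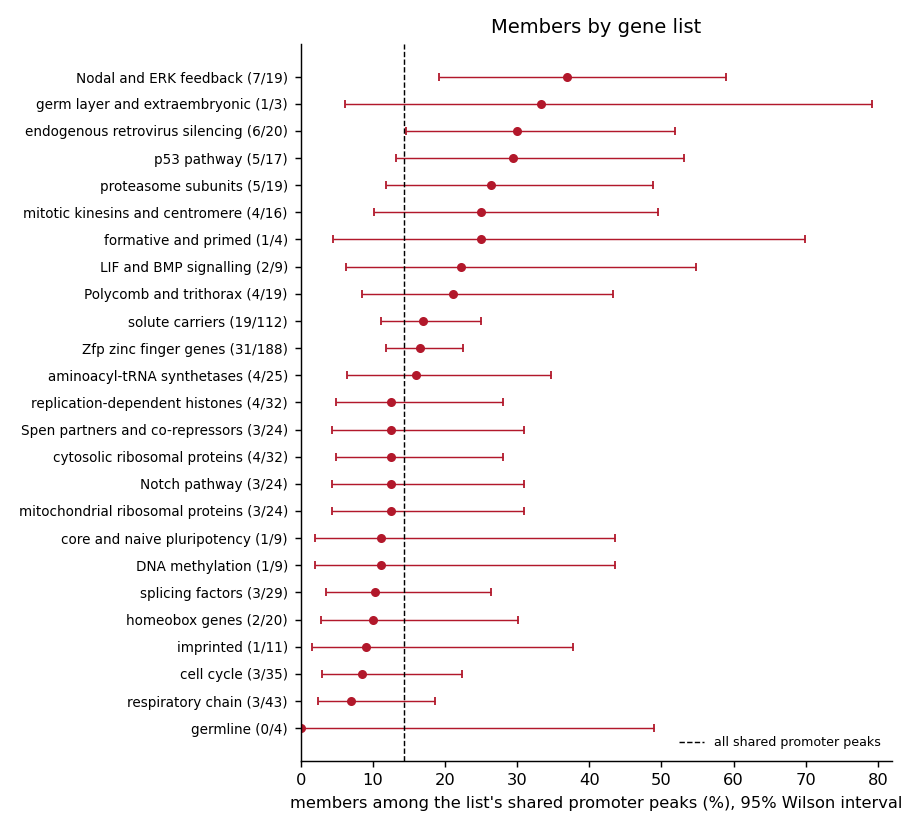
Members as a share of the shared promoter peaks of each of 25 gene lists (x axis, with 95% Wilson intervals; the counts stand beside the names), and the 14.3% of all shared promoter peaks (dashed line). The 2 largest lists, with 188 and 112 peaks, lie at 16.5% and 17.0%, and most smaller lists have intervals that span the line.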

How the data were processed

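ATAC-seq was done in haploid mESCs. Adapters were removed with cutadapt and Bowtie2 alignments to mm9 were limited by the authors to unique, proper and non-duplicate pairs. Peaks were called with MACS2 (q 0.01) on each of 2 replicates, technical by the study's methods, and kept at an IDR under 0.05. Each deposited peak holds a score per replicate, on a scale the lists do not name, and the IDR. Normalisation to depth and base composition is not given in the sources used here, and either could move ranks.

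Peaks of the WT and clone 3 lists were paired by overlap of at least 1 bp. Coordinates count from 1. The TSS came from GENCODE for mm9 (coding transcripts), and sequence from the mm9 genome. All peaks lay inside mm9 chromosomes. Regional GC was taken over 500 kb, summed in 100-bp blocks, and coding genes starting within 500 kb on either side were counted. Weighted values give the other shared promoters the members' distribution over deciles of WT percentile.

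With 1 list per line no test was made. The members, gene lists and motifs were chosen with earlier results of these data known. Named peaks were the 12 most negative with every clone 3 replicate 20 or more points below every WT one, up to 3 members per gene list, and 3 peaks on each side of the threshold. A few peaks named by this rule are not reported here. Peaks of the fourth and further members of a list were named in 3 lists after their values were seen. The overlap, ranks, intervals, motif search and weighting were tested on simulated data. Alternatives covered the score, replicates, ranking, overlap, partner, promoter distance, threshold, IDR, list length, a segment of chromosome 1 (100 to 130 Mb) and fragments. Computing used pandas 2.3.3, pysam 0.24.0, scipy 1.17.1 and numpy 2.4.6 under Python 3.11.15.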

Additional observations from a re-analysis of the deposited data

How the results depend on the processing

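The count of 1037 members was 664 when peaks were ranked against shared promoter peaks only and 668 at a threshold of 25 points. The opposite set of 339 became 656 under that ranking, 560 at a threshold of 15 points and 195 at 25. Leaving out 1 replicate gave 1110 to 1338 members and 415 to 552 in the opposite set, the 552 without WT replicate 1. The share of members lower in all 4 replicate pairings (85.7%) was 92.8% under the promoter-only ranking, 78.8% and 91.2% at thresholds of 15 and 25 points, 69.6% at an IDR of at most 0.01 and 81.9% with lists of equal length.

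The share of members was higher in the highest than in the lowest quintile of regional GC (22.2% and 6.96%) under every alternative run; this result was added after the data had been seen. It was 25.4% and 8.82% with the lower replicate value as score, 14.9% and 4.68% in the promoter-only ranking, 32.2% and 10.7% at 15 points, 14.8% and 4.41% at 25 points, 32.7% and 11.2% at an IDR of at most 0.01, and 26.7% and 8.70% with lists of equal length. Leaving out 1 replicate gave 20.9% to 27.2% and 7.37% to 9.78%. The median regional GC of members (45.9%) was 45.3% at an IDR of at most 0.01 and 45.5% to 46.0% without 1 replicate. The share of members in the highest of 3 gene density groups (47.2%) was 43.9% to 47.8% without 1 replicate. The share with CCAAT was 42.5% in the promoter-only ranking and 48.0% at an IDR of at most 0.01. The median GC content, the CpG ratio and the divergent share stayed inside their intervals in every alternative. The difference at Akap1, just outside the threshold, turned to 1.02 without clone 3 replicate 1 and was -47.3 without replicate 2. The causes were not tested.

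No paired analysis was possible because each line has 1 list, and the order of its 2 values is tied to no label. The lists hold values on a scale that is not named, and no reads, so depth and absolute openness are unknown, and promoters present in 1 list only fall outside the members. Clone 3 is 1 clone, and the lists do not say whether their 2 values, technical replicates by the study's methods, come from cells with or without doxycycline.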
